A study of Homo sapiens with 16 samples.

Results

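The comparison concerned trimethylation of histone H3 at lysine 27 (H3K27me3) in myeloma cells that expressed the F1295A form of NSD2, set against cells that expressed wild type NSD2 (WT). Its members were the 2083 peaks of the F1295A list and the 3790 peaks of the WT list, 5873 of the 13942 peaks in the 4 H3K27me3 lists of the series. Both lists were taken whole, and peaks were sorted into lost, kept, gained, widened and narrowed by their overlap. F1295A exchanges a phenylalanine for an alanine in NSD2. All samples came from TKO, a line that the labels describe as KMS-11, a multiple myeloma line, with the genotype WHSC1(+/-), where WHSC1 is an older name of NSD2. The labels give every sample the same source, genotype and cell type, and they do not say how the NSD2 forms were introduced, at what level they were expressed or whether a form was carried by a single clone. The 4 forms were F1295A, D1240A (another substitution in NSD2), plain TKO cells and WT. For each form there were 2 samples of H3K27me3 and 1 each of H3K4me3 and IgG, which makes 16 samples in 12 groups. Chromatin was fixed with 0.8% formaldehyde, and libraries were made by ChIPmentation, in which a transposase inserts the sequencing adaptors into immunoprecipitated chromatin. The series asked how mutant NSD2 alters chromatin marks.

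H3K27me3 is written by Polycomb repressive complex 2 through its subunit EZH2 or EZH1, and it covers silent developmental and lineage genes in domains that can span whole gene clusters. NSD2 methylates lysine 36 of the same histone, and H3K36 methylation hinders Polycomb repressive complex 2 on the same histone tail. In myeloma with t(4;14), NSD2 is placed under immunoglobulin enhancers and overexpressed, H3K36 dimethylation spreads over the genome, and H3K27me3 is redistributed. H3K4me3, also profiled, marks the starts of active and poised genes.

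The labels name a single deposited list for the pair of H3K27me3 samples of each form, so no spread between replicates, no test and no p-value could be had. A difference below is therefore a difference between 2 lists. Intervals are exact Clopper-Pearson 95% intervals and cover counting error only. Peaks or genes that lie side by side are not separate observations. The read depth is unknown, and a shorter list can come from a shallower sample or a stricter threshold. H3K4me3 at cell type markers was counted first. Of 12 plasma cell markers, 10 had an H3K4me3 peak at the promoter in F1295A and 10 in WT, with CD38 and SLAMF7 lacking one in F1295A. No gene among the 6 B cell, 4 T cell, 4 myeloid or 6 endothelial and fibroblast markers had one in either form. H3K27me3 lay at 0 of the B cell markers in F1295A and 2 in WT, at 2 of the endothelial and fibroblast markers in F1295A and 1 in WT, and at 1 plasma cell, 1 myeloid and 0 T cell markers in each form.

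The sequences shown belong to non-coding and coding genes whose H3K27me3 was lost, kept or gained between the lists. Mature microRNAs are shown because their hairpins lay under a WT peak and no F1295A peak (the first 3), under peaks of both forms (the next 4) or, for 1 of its gene copies, under an F1295A peak and no WT peak (the last). Capitals mark the seed, bases 2 to 8, and the sequences are from RefSeq on GRCh38.p14.
hsa-miR-143-3p: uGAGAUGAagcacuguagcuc
hsa-miR-145-5p: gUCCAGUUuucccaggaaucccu
hsa-miR-126-3p: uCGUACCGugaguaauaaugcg
hsa-miR-200b-3p: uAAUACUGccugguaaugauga
hsa-miR-429: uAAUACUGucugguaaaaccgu
hsa-miR-200a-3p: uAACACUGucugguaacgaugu
hsa-miR-9-5p: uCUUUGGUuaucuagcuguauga
hsa-miR-196a-5p: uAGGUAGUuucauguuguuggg
Of these, miR-200b-3p and miR-429 share the seed AAUACUG, and both come from a cluster with miR-200a near the start of chromosome 1. The hairpins lie at chr5:149428918-149429023 for MIR143, chr5:149430646-149430733 for MIR145, chr9:136670602-136670686 for MIR126, chr1:1167104-1167198 for MIR200B, chr15:89368017-89368106 for MIR9-3, all on the plus strand, and chr17:48632490-48632559 on the minus strand for MIR196A1.

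For 6 protein-coding genes the 250 bases before the transcription start are shown, from RefSeq on GRCh38.p14, each 5′ to 3′ on the gene's own strand, with CG pairs in capitals. CDKN1A, BCL6 and DLX2 had H3K27me3 at the promoter in WT and not in F1295A, ITGA5 and HES1 had it in both, and CELF3 had it in F1295A and not in WT.
CDKN1A, chr6:36678464-36678713, plus strand: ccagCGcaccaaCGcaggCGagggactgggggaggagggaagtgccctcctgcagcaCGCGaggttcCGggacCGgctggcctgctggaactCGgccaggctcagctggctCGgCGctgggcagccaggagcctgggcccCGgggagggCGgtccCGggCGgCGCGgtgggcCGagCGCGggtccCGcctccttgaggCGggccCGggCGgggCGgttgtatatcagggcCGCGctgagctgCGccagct
BCL6, chr3:187745469-187745718, minus strand: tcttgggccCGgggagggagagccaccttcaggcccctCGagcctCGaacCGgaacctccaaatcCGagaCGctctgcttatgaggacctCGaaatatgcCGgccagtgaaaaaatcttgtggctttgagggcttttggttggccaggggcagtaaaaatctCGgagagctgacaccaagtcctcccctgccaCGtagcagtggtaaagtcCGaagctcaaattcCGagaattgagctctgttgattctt
DLX2, chr2:172102901-172103150, minus strand: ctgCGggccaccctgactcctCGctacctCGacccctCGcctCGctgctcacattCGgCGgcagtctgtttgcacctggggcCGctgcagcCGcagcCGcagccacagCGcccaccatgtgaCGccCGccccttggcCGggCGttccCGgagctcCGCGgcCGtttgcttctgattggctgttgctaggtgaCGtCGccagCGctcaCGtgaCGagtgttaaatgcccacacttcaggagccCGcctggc
ITGA5, chr12:54419267-54419516, minus strand: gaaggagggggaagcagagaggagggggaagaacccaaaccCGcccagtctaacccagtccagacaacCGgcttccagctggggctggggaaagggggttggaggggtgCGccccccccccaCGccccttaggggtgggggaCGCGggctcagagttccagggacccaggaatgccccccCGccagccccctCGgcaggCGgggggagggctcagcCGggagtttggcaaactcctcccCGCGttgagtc
HES1, chr3:194135898-194136147, plus strand: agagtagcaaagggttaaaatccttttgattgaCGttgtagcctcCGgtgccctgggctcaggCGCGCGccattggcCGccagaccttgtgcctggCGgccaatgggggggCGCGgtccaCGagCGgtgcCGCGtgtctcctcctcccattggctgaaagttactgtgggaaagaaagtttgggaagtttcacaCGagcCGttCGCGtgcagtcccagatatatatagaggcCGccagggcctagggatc
CELF3, chr1:151716804-151717053, minus strand: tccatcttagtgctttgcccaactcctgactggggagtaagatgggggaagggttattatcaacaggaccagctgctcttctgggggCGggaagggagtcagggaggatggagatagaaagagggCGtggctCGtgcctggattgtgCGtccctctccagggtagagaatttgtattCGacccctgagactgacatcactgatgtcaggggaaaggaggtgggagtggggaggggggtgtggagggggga
The windows held 27 CG pairs at CDKN1A, 12 at BCL6, 25 at DLX2, 12 at ITGA5, 18 at HES1 and 5 at CELF3.

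Nearly all F1295A peaks lay on WT peaks, whereas a large share of WT peaks had no F1295A peak on them. Of the 2083 F1295A peaks, 2006 overlapped a WT peak by at least 1 bp (96.3%, 95.4 to 97.1), and 77 did not (3.7%) and are called gained. Of the 3790 WT peaks, 2007 overlapped an F1295A peak (53.0%, 51.4 to 54.6) and are called kept, and 1783 did not (47.0%, 45.4 to 48.6) and are called lost. F1295A peaks covered 38.8 Mb and WT peaks 55.7 Mb, so that the F1295A list covered 69.8% of the WT length. The forms shared 35.1 Mb, F1295A alone covered 3.76 Mb and WT alone 20.6 Mb. Lost peaks held 68.9% of the WT-only bases, whereas 77.4% of the F1295A-only bases lay at peaks that touched WT. When the WT list was cut to its 2083 strongest peaks by total signal, so that both lists had equal peak numbers, 19.97% of WT peaks were lost and 17.4% of F1295A peaks gained, and the F1295A list covered 88.6% of the WT length.

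The lost peaks were mostly the narrow and weak ones of the WT list. Total signal, the coverage summed over a peak by the authors' caller, was used only to rank peaks within a list. Lost WT peaks had a median width of 7168 bp and a median percentile of 27.3 within the WT list, and kept WT peaks had 14627 bp and 71.9. By width, 85.4% of WT peaks under 5 kb were lost, 68.7% of those of 5 to 10 kb, 30.2% of those of 10 to 20 kb and 4.66% of those of 20 to 30 kb. Beyond 30 kb, 2 of 214 WT peaks up to 50 kb and 2 of 126 wider ones were lost. In the weakest 10% of the WT list 14.8% of peaks overlapped an F1295A peak (11.4 to 18.8), in the strongest 10% 97.6% (95.5 to 98.9). Ranked by signal per base, which depends less on width, 20.6% of the weakest 10% and 88.1% of the strongest 10% overlapped. Lost peaks stood a median of 56.7 kb from the nearest F1295A peak, and 19.6% were within 10 kb of one. Peaks were counted at a gene start if they came within 1 kb of it, or of either record end where the start is not known. By this count 9.09% of gained F1295A peaks (3.73 to 17.8), 28.4% of lost WT peaks (26.4 to 30.6) and 41.0% of kept WT peaks (38.8 to 43.1) lay at one. Wider peaks can reach more starts, and these shares were not adjusted for width.

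**Figure D1:**
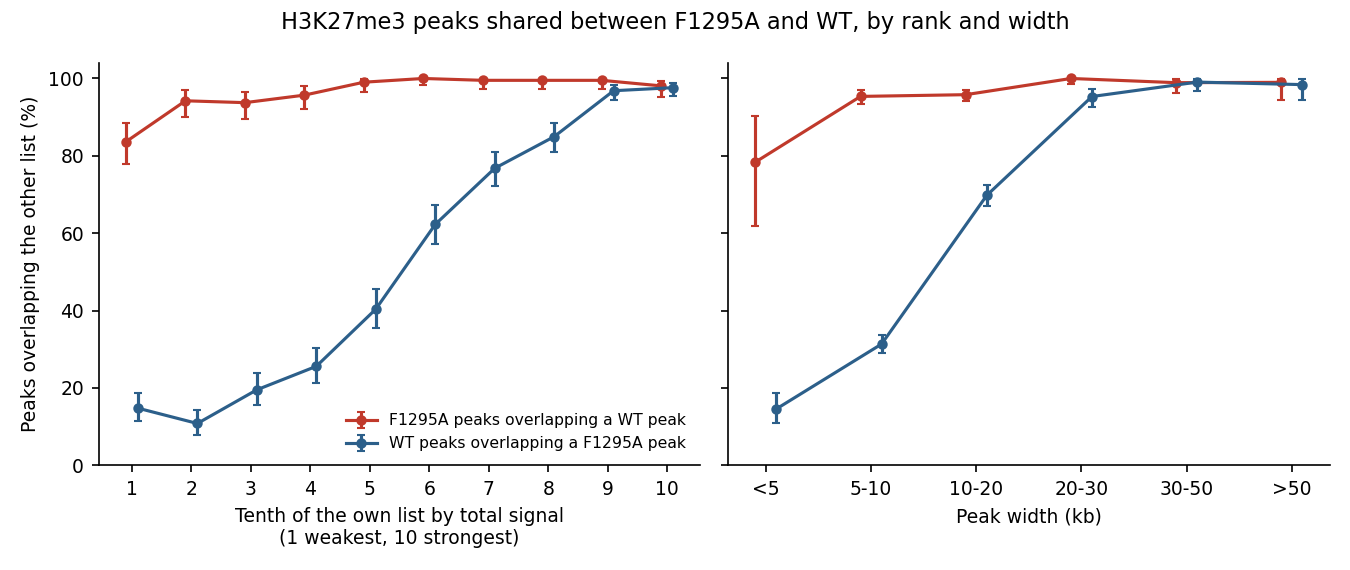
Share of H3K27me3 peaks that overlap a peak of the other form (%), by steps of 10% of the own list ranked on total signal (left) and by peak width in kb (right), for F1295A peaks (red) and WT peaks (blue), with exact 95% intervals. F1295A peaks overlapped WT in 83.7% of the weakest 10% and 98.1% of the strongest 10%, while WT peaks ran between 10.8% and 97.6%.

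Loss was seen on every chromosome analysed, and its share varied. It was 40.4% of 609 WT peaks on chromosome 1 and 31.1% of 177 on chromosome 10, the lowest share, against 82.4% of 17 on chromosome 13, the highest. On chromosome 17, which held 346 WT peaks, 50.6% were lost. The gained peaks were less evenly placed. Of the 77, 30 lay on chromosome 1 (39.0%, 28.0 to 50.8), where 18.6% of all F1295A peaks lay (16.9 to 20.3), and 25 were on its long arm (32.5%), against 9.12% of all F1295A peaks.

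Some lost peaks were strong and broad. On chromosome 1, 3 WT peaks over the potassium channel gene KCNN3 did not overlap an F1295A peak. They were 69.9, 60.8 and 19.5 kb wide, at percentiles 99.1, 98.8 and 87.4 of the WT list. Further WT H3K27me3 on the gene was kept, in a narrowed domain of 9.40 kb in F1295A and 13.8 kb in WT. H3K27me3 covered 5.44% of the KCNN3 gene record (chr1:154697455-154870281) in F1295A, 48.8% in D1240A, 90.5% in TKO and 88.7% in WT. A WT peak of 15.4 kb at percentile 96.2 covered the start of EFNA3, an ephrin ligand of Eph receptors, and had no F1295A counterpart. SMARCD3, a subunit of BAF chromatin remodelling complexes, lay under a lost peak of 10.1 kb (percentile 94.2), and the adhesion gene IGSF9 shared a lost peak of 30.7 kb with SLAMF9 (percentile 93.9). Lost peaks away from gene starts lay in CYP46A1, an enzyme of cholesterol breakdown in brain, in TNS4, a tensin of focal adhesions, and in COL18A1, a basement membrane collagen. The strongest lost peak by percentile (99.4) was chr20:63501516-63520736, 19.2 kb wide.

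Several of the strongest gained peaks were neighbours near the end of the short arm of chromosome 1. A peak of 53.4 kb in TTC34 stood at percentile 99.8 of the F1295A list, and a peak of 35.0 kb in MMEL1, a neprilysin-like peptidase, at 94.1. H3K27me3 covered 82.7% of the MMEL1 record in F1295A, 55.9% in D1240A and 75.8% in TKO, and none of it in WT. Farther along chromosome 1, a gained peak of 40.7 kb at percentile 95.1 covered the starts of CELF3, an RNA-binding protein of splicing, and of RIIAD1. D1240A had 31.5 kb of H3K27me3 under that peak, and TKO and WT had none. CRIP2, a LIM domain protein, lay under a gained peak of 9.17 kb, and CPNE5, a copine, and NAV1, a neuron navigator, held gained peaks away from their starts. Gained peaks were mostly weak, with a median percentile of 12.2 against 51.5 for F1295A peaks that touched WT. A gained peak of 263 bp, at percentile 21.8 by total signal and 100 by signal per base, lay inside NSD2 near the end of its record. Another, chr6:36649560-36660091, lay 16.4 kb from the record of CDKN1A, whose own WT peak was lost.

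Where both forms had H3K27me3, its extent was mostly similar, and narrowing was more frequent than widening. Overlapping peaks of both lists were joined into domains, of which 1863 held both forms. The covered length in F1295A was at least 1.2 times that in WT in 318 domains (17.1%), at most 0.8 times in 484 (26.0%), and in between in 1061 (57.0%). The median ratio of F1295A to WT was 0.980, with quartiles of 0.789 and 1.10. Widened domains had a median of 12.5 kb in F1295A and 8.28 kb in WT, and narrowed domains 10.9 kb in F1295A and 18.9 kb in WT. By the same count within 1 kb, 25.8% of widened, 50.4% of narrowed and 46.8% of the domains in between lay at a gene start or record end. In 109 domains several WT peaks lay under a single F1295A peak, and in 106 a single WT peak lay under several F1295A peaks. With equal peak numbers 164 domains were widened and 467 narrowed.

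**Figure D2:**
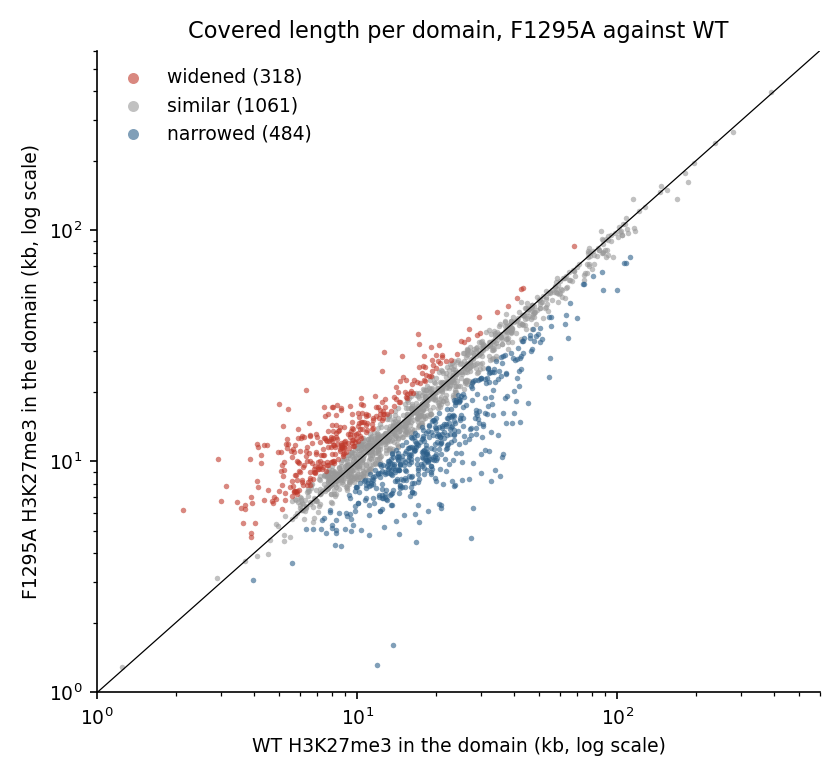
Kilobases covered by H3K27me3 per domain in F1295A (vertical, log scale) and WT (horizontal, log scale), 1 point for each of the 1863 domains with peaks of both forms, and the line of equal length. The 318 widened domains (red) lie mostly at short WT lengths, and the 484 narrowed ones (blue) below the line at longer WT lengths.

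Among the widened domains, the largest difference in kb was at KRT85, a hair keratin, with 35.7 kb in F1295A and 17.2 kb in WT, where a pair of WT peaks lay under a single F1295A peak. Next among them was the cluster of CD300C, CD300H, CD300LD and CD300E, receptors of myeloid cells, with 85.8 kb in F1295A and 68.3 kb in WT. These keratin and CD300 genes have close paralogs, among which the authors' alignment could divide reads. A domain in the collagen gene COL27A1 had 32.1 kb in F1295A and 17.3 kb in WT. The domain of GBX1, a homeobox factor, and ASB10 had 55.8 kb in F1295A and 42.5 kb in WT, and that of FCAMR, a receptor of IgA and IgM, 17.8 kb in F1295A and 5.01 kb in WT. By length alone, the largest gain was 21.4 kb, at a long domain whose ratio put it in between, and the largest loss was greater. DAGLA, an endocannabinoid lipase, and MYRF, a myelin regulatory factor, shared a domain of 55.2 kb in F1295A and 100.002 kb in WT, and the F1295A peak no longer reached MYRF. The domain of BGN, a matrix proteoglycan, ATP2B3, a calcium pump, and HAUS7, an augmin subunit, had 72.4 kb in F1295A and 108 kb in WT. FIBCD1, a chitin-binding receptor, and QRFP had 76.4 kb in F1295A and 112 kb in WT. RAET1E, RAET1G and ULBP2, ligands of the natural killer cell receptor NKG2D, had 34.2 kb in F1295A and 64.8 kb in WT. SRCIN1, an inhibitor of Src signalling, had 23.1 kb in F1295A and 54.7 kb in WT, and CRHR2, a receptor of corticotropin-releasing hormone family peptides, 17.9 kb in F1295A and 45.4 kb in WT.

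The order of domains by strength was partly kept. Among the 1631 domains with a single peak in each list, percentiles of total signal were computed within that set, separately for each form. Spearman's rho across domains was 0.755, given as a description because domains of a library are not replicates. The difference in percentile, F1295A minus WT, lay between -31.0 and 35.3 for the middle 90% of domains. It was at least 50 points upwards in 32 domains and downwards in 15. Among the narrowed domains that stood lower in F1295A were those of HRC and TRPM4 (percentile 5.28 in F1295A, 84.2 in WT), of the semaphorin SEMA3F (3.56 in F1295A, 70.3 in WT) and of the interferon-induced IFITM1, IFITM2 and IFITM3 (11.8 in F1295A, 77.9 in WT). All 4 domains with the largest upward differences were widened ones and held no gene start. Total signal is summed over a peak and so depends on its width, which also defines the widened and narrowed classes. A narrowed domain could still rise, as at chr1:157182300-157194433 (percentile 91.3 in F1295A, 18.5 in WT).

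At gene promoters, H3K27me3 was present at fewer genes in F1295A. A protein-coding gene counted as marked if its start, give or take 1 kb, touched a peak, or if either end of its record did for the 4162 of 19974 genes whose start and strand are not in the table used. By this count 972 genes were marked in F1295A (4.87%) and 1603 in WT (8.03%). Of the WT-marked genes, 664 were lost (41.4%, 39.0 to 43.9, and 3.32% of all genes) and 939 were kept (4.7% of all genes), and 33 genes were gained (0.165% of all genes, 3.4% of those marked in F1295A). The WT peak itself was lost at 491 of the 664 lost genes. No F1295A peak lay within 10 kb of 520 of the lost genes, and no WT peak within 10 kb of 8 of the gained ones. With equal peak numbers 318 genes were lost and 87 gained, and with the stronger 50% of each list 596 were kept. The gene lists described next can be read against the 41.4% of all WT-marked genes that were lost. Lost members named from these lists were mostly picked for having no F1295A peak within 10 kb, which not all lost genes share.

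**Figure D3:**
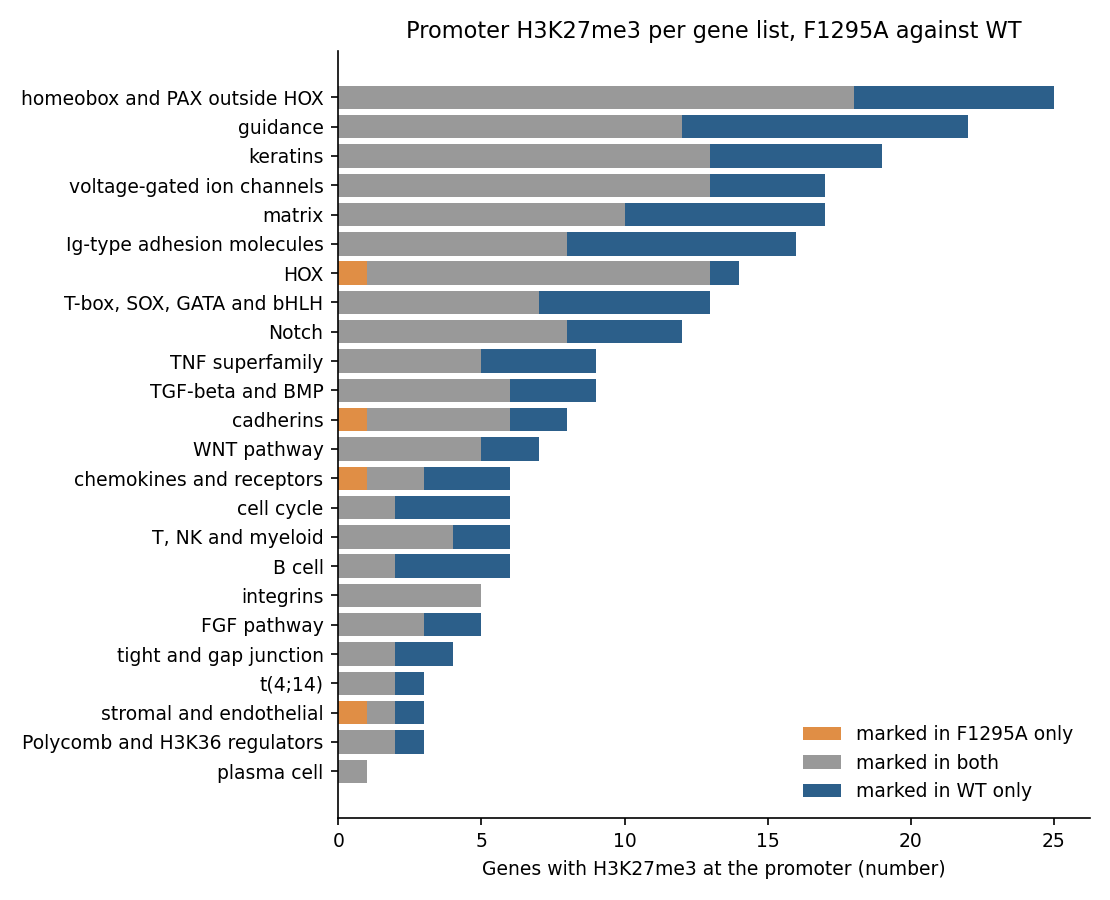
Number of genes with H3K27me3 at the promoter per gene list, divided into those marked in F1295A alone (orange), in both forms (grey) and in WT alone (blue). Integrins and HOX genes are almost wholly grey, with 0 of 5 and 1 of 13 WT-marked members lost, while 4 of 6 WT-marked cell cycle genes are blue.

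Genes of cell adhesion, the theme of the study's title, were divided between the classes. Integrins, the receptors that bind cells to matrix, kept the mark at all 5 WT-marked members of 26, ITGA3, ITGA5, ITGA7, ITGB2 and ITGB4, a lost share of 0% with an upper bound of 52.2%. With the stronger 50% of each list ITGA3 was lost. The strongest WT peaks near ITGA5, ITGA7 and ITGB2 stood at percentiles 92.4, 91.6 and 90.7, and that near ITGA3 at 55.8. Of all WT peaks in the strongest 10% only 2.37% were lost, so keeping the mark was common at such ranks. The covered share of the gene record changed by a median of -16.5 percentage points in WT-marked integrins and -7.44 in all WT-marked genes. Around the start of ITGA5, the fibronectin receptor subunit, H3K27me3 filled the whole window of 10 kb to each side in F1295A and in WT. ITGB2, the subunit of leukocyte integrins, had 15.0 kb in F1295A and 19.0 kb in WT, and ITGA3, a laminin receptor subunit, 10.1 kb in F1295A and 22.6 kb in WT. Cadherins lost 2 of 7, CELSR2 and CDHR4, and kept CDH23, CDH16, CDH22, PCDH1 and CDH15, while CDH5, the endothelial cadherin, was gained with 12.1 kb in F1295A and 6.72 kb nearby in WT. Adhesion molecules of the immunoglobulin type lost 8 of 16 (interval of the share 24.7 to 75.3%), all with no F1295A peak within 10 kb. L1CAM, a neural adhesion molecule, had 0 kb in F1295A and 18.8 kb in WT, IGSF9 0 kb in F1295A and the whole window in WT, and CEACAM7 0 kb in F1295A and 11.2 kb in WT. NFASC, which anchors axon initial segments, had no mark near its start in F1295A and 8.64 kb in WT, although 47.2% of its record was covered in F1295A and 53.9% in WT. Kept members included CNTN2, a contactin, with the whole window covered in both forms, and KIRREL1, with 12.6 kb in F1295A and 20.8 kb in WT.

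Matrix genes lost 7 of 17 (41.2%), close to the share of all genes. The basement membrane proteoglycan HSPG2 had 0 kb in F1295A and 14.1 kb in WT, and the collagen COL5A3 0 kb in F1295A and 12.4 kb in WT. Of the HSPG2 record, 15.0% was still covered in F1295A, against 32.9% in WT. COL1A1, the main collagen of bone and skin, had 26.25 kb in F1295A and 26.25 kb in WT, and AGRN, the agrin of the neuromuscular junction, 27.1 kb in F1295A and 27.6 kb in WT. The junction genes lost the connexins GJC1 and GJC3 and kept the claudins CLDN6 and CLDN9. Guidance genes, the ephrins, semaphorins, plexins, netrins and their receptors, lost 10 of 22 (45.5%, 24.4 to 67.8). Besides EFNA3, these included SEMA3G, with 0 kb in F1295A and 10.1 kb in WT, and the receptor EPHA10, with 0 kb in F1295A and 8.88 kb in WT. The receptor EPHA8 kept the whole window in both forms, and EPHB2 had 14.2 kb in F1295A and the whole window in WT. UNC5B, a netrin receptor, had 23.9 kb in F1295A and 26.5 kb in WT.

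Among developmental factors, HOX genes mostly kept their mark, with 12 of 13 WT-marked genes kept (lost share 7.69%, 0.195 to 36.03). HOXC6, HOXC10 and HOXC13 had a WT peak at percentile 99.8, and of all WT peaks in the strongest 10% only 2.37% were lost. Keeping the mark was thus common to peaks of that rank. These genes are neighbours in the HOXB and HOXC clusters and share peaks, so they are not separate observations. HOXC10 had 25.1 kb in F1295A and 25.1 kb in WT, HOXC6 33.9 kb in both forms, and HOXC13, at the cluster's edge, 15.7 kb in F1295A and 25.8 kb in WT. HOXB13 was lost and HOXB7 gained, HOXB7 with 17.9 kb within 10 kb in F1295A and 17.1 kb in WT, so that here a peak edge moved across the promoter. Other homeobox and PAX genes lost 7 of 25 (28.0%, 12.1 to 49.4). The forebrain factors DLX1 and DLX2, neighbours on chromosome 2, had 0 kb in F1295A and 9.28 and 10.5 kb in WT, and LHX1, a LIM homeobox factor of kidney and head, had 0 kb in F1295A and 9.23 kb in WT. EMX1, a cortical factor, had 31.5 kb in F1295A and 27.03 kb in WT, while CDX1, a gut factor, had 13.6 kb in F1295A and 26.5 kb in WT. T-box, SOX, GATA and bHLH factors lost 6 of 13 (46.2%). TAL1 and LYL1, related factors of blood stem cells, had 0 kb in F1295A and 9.03 and 10.4 kb in WT, and NEUROG3, a factor of endocrine pancreas, 0 kb in F1295A and 9.56 kb in WT. SOX8 and GATA5 kept 25.2 and 32.5 kb in both forms.

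Signalling genes showed lost and kept members in each pathway. In the Notch pathway 4 of 12 were lost. The receptor NOTCH1 had 0 kb in F1295A and 9.88 kb in WT, the ligand DLL3 0 kb in F1295A and 11.5 kb in WT, and the target HEYL 0 kb in F1295A and 7.10 kb in WT. The targets HES1 and HES2 kept 10.9 and 19.9 kb in F1295A, with 14.3 and 19.3 kb in WT, and the glycosyltransferase LFNG, which tunes the receptors, had 19.7 kb in F1295A and the whole window in WT. The WNT pathway lost 2 of 7, the ligand WNT1, with 0 kb in F1295A and 11.98 kb in WT, and the antagonist SFRP5, with 0 kb in F1295A and 8.66 kb in WT. The ligands WNT4 and WNT7B kept 19.2 and 35.9 kb in F1295A, with 19.1 and 34.5 kb in WT. Of the TGF-beta and BMP genes, 3 of 9 were lost, the ligands INHBB and BMP4 and the antagonist FST, and the antagonist CHRD kept 17.7 kb in both forms. TNF superfamily genes lost 4 of 9, among them TNFRSF13C, the BAFF receptor of B cells, with 0 kb in F1295A and 6.12 kb in WT, and kept LTA and TNF, each with 10.3 kb in F1295A, and the whole window and 18.0 kb in WT. Chemokine genes lost 3 of 5, ACKR1, CCL24 and CX3CL1, and gained CCL26. FGF pathway genes lost the receptor FGFR1 and the ligand FGF3 of 5 marked.

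Cell cycle genes were few and mostly lost, 4 of 6 (66.7%, 22.3 to 95.7). CDKN1A, which encodes the CDK inhibitor p21, had 0 kb in F1295A and 5.97 kb in WT. CCND1 and CCND3, D cyclins, had 0 kb in F1295A and 13.7 and 5.15 kb in WT, and MYC, a growth-promoting transcription factor, 0 kb in F1295A and 4.63 kb in WT. Kept members were MYCL, with 12.8 kb in both forms, and TP73, a relative of p53, with 8.37 kb in F1295A and 10.0 kb in WT. The B cell list likewise lost 4 of 6. BCL6, the germinal centre repressor, had 0 kb in F1295A and 6.73 kb in WT. PAX5, the B cell identity factor, no longer had a peak at its start but had 8.31 kb within 10 kb in F1295A, against 15.4 kb in WT, and it counted as kept with a window of 2.5 kb. With the stronger 50% of each list CDKN1A, CCND3, MYC and BCL6 were unmarked in WT too, so their calls ended, and MYCL and TP73 were lost. With equal peak numbers the calls of MYC and BCL6 ended, while those of CDKN1A and CCND3 did not. CD79B and FCER2 were also lost, while CD40 had 19.7 kb in F1295A and 21.2 kb in WT, and CCR7 21.5 kb in F1295A and 21.2 kb in WT. Of 20 plasma cell genes only SDC1, the syndecan used to identify plasma cells, was marked, with 13.3 kb in F1295A and 8.30 kb in WT. IRF4, PRDM1 and XBP1, factors of the plasma cell programme, had no H3K27me3 within 10 kb in either form, nor did CCND2, CD38, ITGB7, EZH2 or GAPDH. Of t(4;14) genes, FGFR3, the other gene of the translocation region, was kept, with 10.0 kb in F1295A and the whole window in WT. MYRF had 0 kb in F1295A, against 20.001 kb in WT over windows at both its ends. Of Polycomb and H3K36 regulators, CBX2 and CBX8, which encode readers of H3K27me3, had 11.4 and 10.0 kb in F1295A, and 11.5 and 9.95 kb in WT. No housekeeping gene of 20 was marked in either form.

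**Figure D4:**
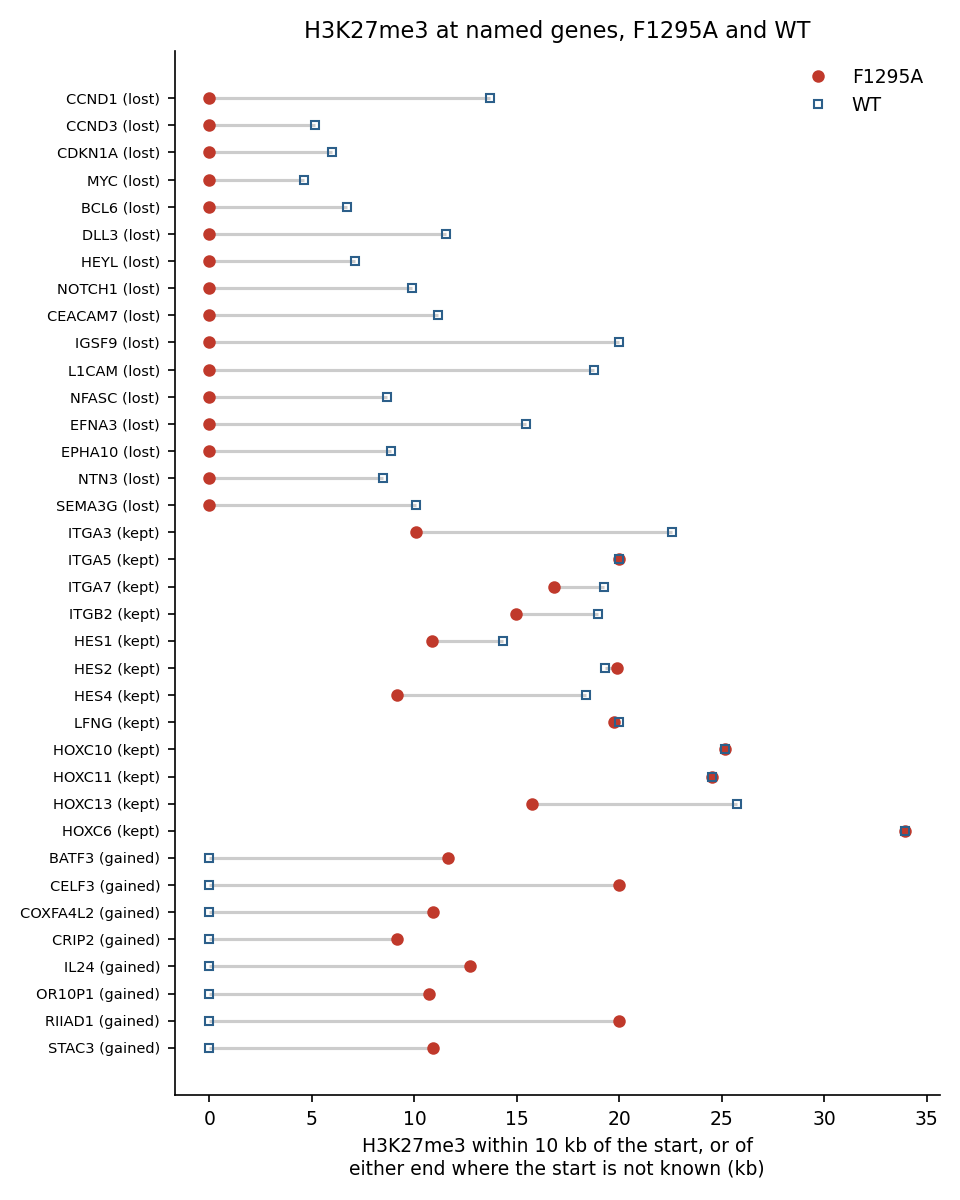
Kilobases of H3K27me3 near named genes in F1295A (filled red circles) and WT (open blue squares), joined by a line for each gene, with the promoter class in brackets. The window is 10 kb to each side of the start, or of both ends where the start is not in the table used. The lost genes plotted have 0 kb in F1295A, and the integrins and HOX genes plotted have both symbols at 10 kb or above. The gained genes are the 8 chosen for having 0 kb in WT, and lost genes with H3K27me3 left nearby in F1295A, such as PAX5, are not plotted.

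Other tissue-specific lists behaved as follows. Keratins lost 6 of 19 (31.6%), among them KRT13, KRT73 and KRT75, and kept KRT80, with 31.8 kb in F1295A and 31.9 kb in WT. Voltage-gated ion channels lost 4 of 17 (23.5%, 6.81 to 49.9), KCNA10, KCNH3, KCNH4 and CACNA1B. T, NK and myeloid genes lost CSF3R, the receptor of granulocyte colony-stimulating factor, with 0 kb in F1295A and 14.7 kb in WT, and S100A8, and kept CD4, CD7, MPO and S100A9. MPO, the granule peroxidase of neutrophils, had 10.6 kb in F1295A and 18.7 kb in WT. Stromal and endothelial genes lost TIE1, an endothelial receptor, with 0 kb in F1295A and 9.08 kb in WT. Lost genes with much H3K27me3 in WT included SLC22A8, an organic anion transporter (27.02 kb), SPATC1 (23.8 kb), RTN4RL1, a receptor-like protein of neurons (22.96 kb), GRIN1, the obligate NMDA receptor subunit (21.6 kb), and FSCN1, an actin-bundling protein of invasive cells (20.8 kb), each with 0 kb in F1295A. The starts of these genes are not in the table used, so their kb were summed over windows at both ends, whereas a gene with a known start cannot exceed 20.001 kb. The 8 genes gained with no WT peak within 10 kb were CELF3 and RIIAD1 (the whole window in F1295A), IL24 (12.7 kb), BATF3 (11.6 kb), STAC3 and COXFA4L2 (10.9 kb each), OR10P1 (10.7 kb) and CRIP2 (9.17 kb), each with 0 kb in WT. IL24 encodes a cytokine and BATF3 a factor of dendritic cells. TKO had 13.4 kb at IL24, 11.4 kb at BATF3, 8.57 kb at CRIP2 and 8.24 kb at OR10P1, and none at CELF3, RIIAD1, STAC3 and COXFA4L2. D1240A had the whole window at CELF3 and RIIAD1, 9.14 kb at IL24, 7.47 kb at BATF3 and 9.90 kb at CRIP2. It had none at STAC3, COXFA4L2 and OR10P1. BATF3, CRIP2, STAC3 and COXFA4L2 had H3K4me3 at the promoter in F1295A and in WT.

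The class of many of these genes depended on how many peaks each list held. With the stronger 50% of each list, and also with equal peak numbers, the adhesion and junction genes CELSR2, CDHR4, CEACAM7, NFASC and GJC3 were unmarked in both forms, so that their loss was no longer seen. The same held for the signalling genes BMP4, INHBB, FST, SFRP5, HEYL, FGFR1, FGF3, EPHA10, TNFRSF13C, ACKR1 and CCL24. It also held for the transcription factors DLX1 and TAL1, the keratins KRT13, KRT73 and KRT75, the channels KCNA10 and KCNH4, and CKMT1B and CYP2A7. GJC1 and KISS1 lost their call with the stronger 50% alone. There the gained BATF3, IL24, STAC3, COXFA4L2, OR10P1 and BPIFA1 were unmarked in both forms, and the kept CDH16, KIRREL1, FGFR3, SDC1, CBX2, CD7, MPO, LTA, TNF and RAET1G were lost. FCAMR counted as gained with both settings.

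Coverage of whole gene records was likewise lower in F1295A. Of 16814 genes with records of at least 5 kb, 576 were covered over at least 50% of the record in F1295A and 872 in WT. Coverage was lower in F1295A by at least 50 percentage points in 199 genes (1.18%) and higher by that much in 8 (0.0476%). With equal peak numbers these counts were 115 and 30. At 25 points coverage was lower in 501 genes (2.98%) and higher in 36 (0.214%). Among the 22 genes with coverage of 0% in F1295A and 100% in WT were FSCN1, FOXA3, a liver and gut factor, KISS1, which encodes kisspeptin, EXTL1, ABCG4, a sterol transporter, and BATF2. CKMT1B and CYP2A7 were among them too, but both have near-identical copies, so their reads are uncertain. In the other direction, 3 records were covered to 100% in F1295A and 0% in WT, those of CRIP2, RIIAD1 and BPIFA1, an airway surface protein.

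H3K4me3 gave a readout that did not enter the choice of the classes. At the promoters of lost genes an H3K4me3 peak was present in F1295A at 17.5% (14.7 to 20.6) and in WT at 14.6% (12.01 to 17.5). At kept genes it was present in F1295A at 9.16% (7.39 to 11.2) and in WT at 8.20% (6.53 to 10.1), and over all genes in F1295A at 43.5% and in WT at 42.7%. Lost genes thus had H3K4me3 more often than kept genes in both forms. An H3K4me3 peak in F1295A alone was found at 21 lost genes (3.16%, 1.97 to 4.79) and in WT alone at 2 (0.301%, 0.0365 to 1.08). Kept genes had 14 in F1295A alone (1.49%, 0.817 to 2.49) and 5 in WT alone (0.532%, 0.173 to 1.24), with intervals that overlap those of lost genes. Over all genes there were 290 in F1295A alone (1.45%) and 136 in WT alone (0.681%). Each form had 1 H3K4me3 sample. Some of the 21 have equal H3K4me3 lengths, such as LHB and SAXO3 with 4.48 kb each in F1295A, so they may share peaks. Among the 21, all chosen for this pattern, DLX2 had 6.98 kb of H3K4me3 within 10 kb in F1295A and 2.85 kb in WT, beside H3K27me3 of 0 kb in F1295A and 10.5 kb in WT. BCL6 had 9.26 kb of H3K4me3 in F1295A and 5.61 kb in WT. CYP26A1, which degrades retinoic acid, had 4.58 kb of H3K4me3 in F1295A and 0 kb in WT, and SCRT1, a neural zinc finger repressor, 15.4 kb in F1295A and 2.94 kb in WT. GLS2, a glutaminase, had 5.48 kb in F1295A and 0 kb in WT. The 2 genes with the opposite pattern were MPP7, a polarity scaffold, with 0 kb in F1295A and 2.57 kb in WT, and EFNA3, with 0 kb in F1295A and 10.5 kb in WT. Over whole peaks rather than promoters, H3K4me3 of F1295A touched 6.49% of gained F1295A peaks, 5.10% of lost WT peaks and 4.88% of kept WT peaks. It lay wholly inside 0% of the gained, 0.729% of the lost and 1.25% of the kept peaks.

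**Figure D5:**
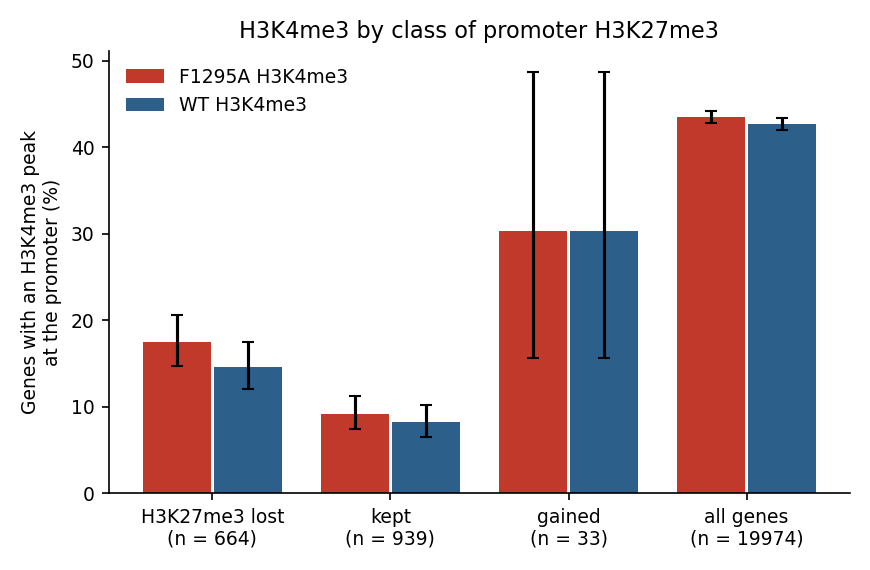
Share of genes with an H3K4me3 peak at the promoter (%) in F1295A (red) and WT (blue), for genes whose promoter H3K27me3 was lost, kept or gained in F1295A and for all genes, with exact 95% intervals. Lost genes stand at 17.5% in F1295A and 14.6% in WT, above kept genes at 9.16% and 8.20%, and all are below the 43.5% and 42.7% of all genes.

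The promoter sequences differed little between lost and kept genes. In windows of 300 bases around the start, the median ratio of observed to expected CG pairs was 0.421 in the 22 gained genes with a sequence, 0.629 in 457 lost genes, 0.591 in 586 kept genes and 0.763 over all 15812 promoters. Median GC content was 59.3% in gained, 65.7% in lost, 65.0% in kept and 62.7% in all promoters. Lost genes with H3K4me3 in F1295A had a median ratio of 0.808, and those without it 0.541. For kept genes the medians were 0.781 with H3K4me3 in F1295A and 0.546 without. The windows of 300 bases, the 250 bases shown above and 50 more past the start, reached across this range, with ratios of 0.900 at DLX2, 0.809 at HES1, 0.722 at CDKN1A, 0.573 at BCL6, 0.449 at ITGA5 and 0.410 at CELF3.

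For each kind of non-coding record, the interval of the lost share overlapped that of protein-coding records. Of 1197 lncRNA records touched by a WT peak, 455 had no F1295A peak (38.01%, 35.3 to 40.8), compared with 834 of 2138 protein-coding records (39.0%, 36.9 to 41.1) by the same criterion. Of 109 microRNA hairpins under a WT peak, 38 were lost (34.9%, 26.0 to 44.6) and 71 kept, and 3 were gained. Pseudogenes had 110 of 246 lost (44.7%, 38.4 to 51.2), with 22 gained. Few snoRNAs and tRNAs were touched in WT, with 5 of 14 and 3 of 5 lost. MIR143 and MIR145, a pair known from smooth muscle, shared a WT peak of 16.9 kb with no F1295A counterpart. MIR126, a microRNA of endothelial cells, lay under a WT peak of 87.6 kb that F1295A peaks overlapped elsewhere. MIR200B, MIR200A and MIR429, known from epithelia, lay under a peak of 22.0 kb in F1295A and 23.4 kb in WT, and MIR9-3, a microRNA of neural tissue, under a peak of 19.8 kb in F1295A and 70.2 kb in WT. MIR196A1, the copy of miR-196a in the HOXB cluster, lay under a gained stretch of a 35.4 kb F1295A peak. MIR196A2, the copy in the HOXC cluster, lay under peaks of both forms.

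The other forms give context for the classes, and every comparison here shares the WT list. Of the 77 gained F1295A peaks, D1240A peaks touched 19.5% (11.3 to 30.1) and TKO peaks 84.4% (74.4 to 91.7), both below the shares of all F1295A peaks, 82.1% for D1240A and 98.8% for TKO. Of the lost WT peaks D1240A touched 10.4% (8.998 to 11.9) and TKO 77.5% (75.5 to 79.4), and of the kept ones D1240A touched 84.0% and TKO 99.4%. The D1240A list held 2188 peaks and the TKO list 5881, so these shares come from lists of unequal length. At promoters, 12.7% of the lost genes were marked in D1240A (10.2 to 15.4) and 60.4% in TKO (56.6 to 64.1), and of the kept genes 84.0% in D1240A and 95.3% in TKO.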

How the data were processed

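Per the labels, H3K27me3, H3K4me3 and IgG ChIPmentation was done in 4 forms of TKO cells. The submitters' processing notes name GRCh38 as build and, as tools, SEACR 1.3, Bowtie2 2.4.5, FastQC 0.11.4 and Trimmomatic 0.36. How peaks were called, against which control, and how the 2 replicates were combined is not given in the sources used here. For each peak the authors deposited a score (coverage summed over the peak, here total signal) and the highest signal (coverage), with no stated scaling, so both served only to rank peaks within a list. IgG samples were not analysed here.

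Lists were compared with pandas 2.3.3, numpy 2.4.6, scipy 1.17.1 and matplotlib 3.10.9 on Python 3.11.15 by overlap of at least 1 bp, by covered bases and at genes of a RefSeq table of GRCh38.p14, of which 15812 had a start and strand. Where the start is not in that table, kb near a gene are summed over windows of 10 kb around both ends. The steps recovered all 600 lost, 50 gained and 200 widened peaks of simulated lists. Those peaks were removed whole, added away from WT peaks or lengthened past the cut-off, so this checked the counting of intervals only. Differences in depth or threshold were not simulated. No test was run. The members, the 25 gene lists (1163 of 1164 entries matched) and the alternatives were chosen with earlier results of these data known. Genes were named by a rule that took, from each list and class, up to 4 genes with the most marked bases. Lost list members had to have no F1295A peak within 10 kb, and gained ones no WT peak within 10 kb. The absence of the mark near them in that form thus follows from the choice. The rule then took the 10 largest of all genes lost or gained and the genes in the 10 domains of largest change each way. It also took the 10 largest changes in record coverage each way, together with 17 fixed genes. KCNN3, TTC34, the named peaks, the rank examples, the microRNAs, the genes with H3K4me3 in a single form, and list members beyond these were named after their values were seen. Some genes that this rule takes are not reported here.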

Additional observations from a re-analysis of the deposited data

Results flagged for a closer look

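A narrow peak inside the NSD2 gene was seen in F1295A lists alone. The F1295A H3K4me3 list, which the comparison of H3K27me3 does not use to choose its peaks, holds a peak of 1043 bp at chr4:1978176-1979218, 2.97 kb from the end of the NSD2 record, and it ranks at percentile 100 of that list by highest signal and by signal per base. The F1295A H3K27me3 list holds a peak of 263 bp within it, at chr4:1978747-1979009, at percentile 100 of its list by signal per base. No peak of either mark lies there in the D1240A, TKO or WT lists, which have an H3K4me3 peak only at the start of NSD2. The origin of these peaks was not tested.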

How the results depend on the processing

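No paired analysis was possible because both replicates of a form share 1 list and no result comes from a test. Of 71 alternative values for the comparisons, 42 stayed near the value reported, 29 moved and 0 were labelled reversed. That last label was open only to covered length and to paired counts, such as lost and gained genes, and not to shares. Near meant inside the exact 95% interval for a share of peaks or genes, which is narrow in long lists, and within 1.5 times for a count or for covered length. With equal peak numbers the lost share of WT peaks was 19.97% and the gained share of F1295A peaks 17.4%. F1295A then covered 88.6% of the WT length, with 164 domains widened, 318 genes lost (26.4% of WT-marked), 87 gained, and record coverage lower by 50 points in 115 genes and higher in 30. Other settings moved the lost share of peaks less, to 50.6% when 50% of a peak had to be covered, 48.9% with the stronger 50% of each list and 43.7% for peaks of at least 5 kb. The gained share was 6.39% with 50% of a peak covered and 4.89% for peaks of at least 5 kb. Widened and narrowed domains numbered 121 and 282 at ratios of at least 1.5 or at most 2/3, and 776 and 1085 at any ratio above or below 1. With the stronger 50% of each list 596 genes were kept and 47.4% of WT-marked genes lost, with genes of known strand (added after seeing the data) 586 were kept, and 8 genes were gained with no WT peak within 10 kb. Record coverage was lower by 25 points in 501 genes and higher in 36. The strongest 10% of WT peaks lost 7.41% ranked by highest signal and 11.9% by signal per base, and the weakest 10% 79.4% by signal per base. H3K4me3 wholly inside a peak was seen in 0% of gained, 0.729% of lost and 1.25% of kept peaks. The order of the classes was then the opposite of that for peaks touched by H3K4me3. Of 189 named genes, 128 stayed in the same class with the stronger 50% of each list 156 with equal peak numbers and 173 to 185 under the 4 other rules for a marked promoter, and 0 changed between lost and gained. Read depth is unknown, so a missing peak may be signal under the threshold.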
